A study of Mus musculus with 16 samples.

Results

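H4K5Ac regions lost on differentiation are the stretches of DNA that carried acetylated lysine 5 of histone H4 in undifferentiated MC3T3-E1 cells and that no acetylated region of the differentiated cells touched. They were selected on the overlap of the deposited lists, as the regions of the undifferentiated H4K5Ac list on chromosomes 1 to 19 of the mm9 mouse genome that overlapped no region of the differentiated H4K5Ac list by 1 bp or more. This rule took 11629 of 40747 regions (28.5%), and the other 29118 regions are called kept. The differentiated list held 32786 regions on the same chromosomes, of which 1555 overlapped no undifferentiated region. MC3T3-E1 is a mouse pre-osteoblast cell line that lays down mineralised matrix in culture, and the labels give passages 5 to 12. Undifferentiated cells and cells differentiated over 15 days, with ascorbic acid at 50 µg/mL and glycerol-2-phosphate at 10 mM, both received the ethanol vehicle for 3 h before chromatin was cross-linked. Chromatin immunoprecipitation and sequencing were done with 7 antibodies in each state, against RUNX2, C/EBPβ, H4K5Ac, H3K9Ac, H3K4me1, H3K4me3 and H3K36me3. Each antibody and state had 1 list, merged from replicates whose separate lists were not used here, so no difference below has a replicate check and no p-value is given. The 95% intervals are exact binomial ones for a share and Newcombe intervals for a difference, and they cover counting error only.

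Histone acetylation loosens chromatin and marks enhancers and promoters in use, and H4K5Ac is laid down on both. H3K4me1 marks enhancers and the flanks of promoters, H3K4me3 active promoters, H3K9Ac mainly active promoters and strong enhancers, and H3K36me3 the bodies of transcribed genes. RUNX2 is the runt-domain factor that bone formation depends on, and C/EBPβ is a basic leucine zipper factor of early mesenchymal differentiation.

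Factor peaks of some of the strongest lost regions are printed here as examples. They were chosen because they held the motif, so they do not show how common it is in such peaks. Below are the whole peaks, on the + strand of mm9, of the 6 highest-scoring lost regions with a RUNX2 peak that held the RUNX core TGTGGT, and of the 3 highest-scoring lost regions with a C/EBPβ peak that held TTGCGCAA, TTGCACAA or TTGTGCAA. Each gene named is the one with the nearest transcription start. Capitals mark the motif on either strand, so that ACCACA is the RUNX core read on the other strand.
RUNX2 peak, intergenic, nearest to 4930544G11Rik, chr6:65962717-65962917: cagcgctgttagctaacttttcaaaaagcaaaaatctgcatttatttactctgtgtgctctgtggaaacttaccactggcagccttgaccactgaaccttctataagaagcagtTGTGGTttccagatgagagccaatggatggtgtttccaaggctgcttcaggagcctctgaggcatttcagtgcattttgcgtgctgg
RUNX2 peak, intron of Fry, chr5:150964589-150964789: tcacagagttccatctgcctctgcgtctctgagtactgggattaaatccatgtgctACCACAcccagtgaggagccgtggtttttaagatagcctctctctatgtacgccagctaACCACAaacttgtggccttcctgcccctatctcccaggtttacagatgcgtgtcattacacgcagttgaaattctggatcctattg
RUNX2 peak, intergenic, nearest to D16Ertd472e, chr16:78738250-78738450: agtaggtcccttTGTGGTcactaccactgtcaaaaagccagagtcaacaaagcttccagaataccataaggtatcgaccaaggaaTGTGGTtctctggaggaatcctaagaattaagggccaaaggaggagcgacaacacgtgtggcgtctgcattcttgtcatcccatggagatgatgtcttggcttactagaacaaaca
RUNX2 peak, intergenic, nearest to Kcna5, chr6:126335707-126335907: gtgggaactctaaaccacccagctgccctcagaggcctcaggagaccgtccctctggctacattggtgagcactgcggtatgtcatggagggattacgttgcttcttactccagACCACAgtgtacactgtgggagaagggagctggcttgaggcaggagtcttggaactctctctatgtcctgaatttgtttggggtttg
RUNX2 peak, intergenic, nearest to Fam19a2, chr10:122689171-122689371: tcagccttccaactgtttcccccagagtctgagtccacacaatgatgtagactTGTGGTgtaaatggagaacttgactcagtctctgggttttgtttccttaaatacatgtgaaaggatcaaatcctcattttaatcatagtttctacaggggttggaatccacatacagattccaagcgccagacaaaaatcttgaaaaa
RUNX2 peak, intergenic, nearest to Dkk1, chr19:30571228-30571428: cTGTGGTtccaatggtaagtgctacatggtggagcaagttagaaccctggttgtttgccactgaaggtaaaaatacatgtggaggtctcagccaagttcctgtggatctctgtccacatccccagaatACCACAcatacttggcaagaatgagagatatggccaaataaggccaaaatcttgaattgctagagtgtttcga
C/EBPβ peak, intron of Elmo1, chr13:20207568-20207768: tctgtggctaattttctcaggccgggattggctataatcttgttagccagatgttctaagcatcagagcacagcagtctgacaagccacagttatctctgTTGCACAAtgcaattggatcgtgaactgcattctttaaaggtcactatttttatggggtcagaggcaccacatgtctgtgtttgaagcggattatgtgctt
C/EBPβ peak, intergenic, nearest to Gm5407, chr16:49369740-49369940: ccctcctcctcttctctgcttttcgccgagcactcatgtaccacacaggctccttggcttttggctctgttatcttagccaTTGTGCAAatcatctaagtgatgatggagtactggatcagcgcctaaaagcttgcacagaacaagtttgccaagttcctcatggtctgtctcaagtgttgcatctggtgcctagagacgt
C/EBPβ peak, intergenic, nearest to Fbxo8, chr8:59372560-59372760: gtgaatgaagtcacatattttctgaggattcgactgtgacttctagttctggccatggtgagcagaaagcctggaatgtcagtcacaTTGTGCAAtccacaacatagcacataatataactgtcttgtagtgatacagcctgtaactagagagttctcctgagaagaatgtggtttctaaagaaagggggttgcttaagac
None of the 6 RUNX2 peaks was listed in differentiated cells. Of the 3 C/EBPβ peaks, only the one in the Elmo1 intron was listed again. The Fry, D16Ertd472e and Dkk1 peaks each held 2 RUNX cores, and the Fam19a2 peak also held an AP-1 site (TGANTCA). Both sites in the Dkk1 peak lay in a lost region 37161 bp from the start of Dkk1, which encodes a secreted Wnt antagonist.

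The lost regions were narrow and low in the authors' peak score. Their median width was 2529 bp against 5722 bp for kept regions, and their median score was 9.15 against 33.85. They covered 40.5 Mb, which is 12.1% of all acetylated bases of the list. Because the rule compares presence with absence, these values describe the choice and are not tested. When the list was cut by score into 4 groups of equal size, from 1 (lowest) to 4 (highest), the share of regions lost was 68.6%, 34.2%, 9.70% and 1.62%. By width, 77.0% of regions up to 1500 bp were lost and 1.54% of those over 20 kb. The lowest score in the undifferentiated list was 2.4 and that in the differentiated list was 11.35, on scales that are not known to be comparable. Of lost regions 63.2% scored under 11.35, as did 12.2% of kept regions, and the part of this difference between the lists in the loss was not tested. In addition, the differentiated cells alone were homogenised to remove matrix, which cannot be told apart from their state. A loss in all cells and a loss in some of the cells cannot be told apart either.

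**Figure D1:**
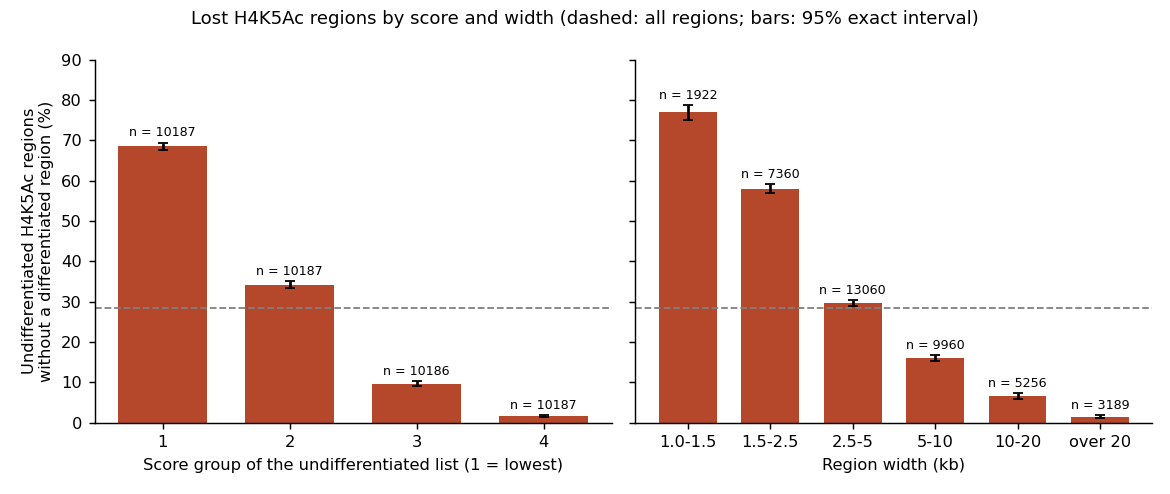
Share of undifferentiated H4K5Ac regions with no differentiated region (vertical axis, percent), by score group (1 lowest, 4 highest) and by width in kb; bars carry 95% exact binomial intervals and the dashed line is the share over all regions. The share falls from 68.6% in the lowest score group to 1.62% in the highest.

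Most lost regions lay well away from any acetylated region of differentiated cells. The median gap to the nearest one was 12530 bp, and only 69 lost regions had one within 1000 bp. Just inside the rule was a region near Rybp, which encodes a Polycomb-associated protein, of 1321 bp and score 4.75 with a gap of 7 bp. Just outside it was a region near Gas1, which encodes a Hedgehog co-receptor, of 12078 bp and score 36.6 that differentiated regions covered over 0.753% of its length. Regions covered in at most 5% of their length numbered 8 of the 29118 kept, those in at most 25% numbered 400, and those in at most 50% numbered 2842 (9.76%). Counting the last as lost would raise the share lost to 35.5%.

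Lost regions were mainly distal. Within 1 kb of an annotated transcription start lay 6.98% of lost regions (812 of 11629), 38.0% of kept regions (11066 of 29118) and 29.2% of all. Lost minus kept, the difference was -31.0 points (95% interval -31.7 to -30.3). Introns held 42.9% of lost, 26.8% of kept and 31.4% of all regions, and intergenic DNA held 47.9%, 33.8% and 37.8%. The median distance to a start was 27946 bp for lost and 8997.5 bp for kept regions. Of lost regions 22.3% were more than 100 kb from any start, and of kept regions 12.3%. A wide region reaches a start more easily than a narrow one, and the same comparison was made within score groups. In the lowest score group 6.23% of lost and 15.6% of kept regions lay at promoters, and in the highest 8.48% and 49.9%. Within score groups the gap was therefore smaller at the weak end and larger at the strong end. Scores were not matched within a group: in the highest the median was 67.05 for lost and 89.3 for kept regions. Lost regions were also poorer in G and C, with a median of 42.1% in their central 1 kb against 46.2% in kept regions, and 42.4% against 47.5% within the lowest score group.

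H3K4me1 was on most lost regions before differentiation and was on about as many after it. Before, 7212 of 11629 lost regions (62.0%) overlapped H3K4me1, against 94.7% of kept and 85.4% of all regions. After, 7377 lost regions (63.4%) did, against 98.6% of kept and 88.6% of all. H3K4me1 regions covered 14.0% of the genome before and 14.2% after. Of the 7212 lost regions with the mark before, 5895 (81.7%, 80.8 to 82.6) still had it after, and 1317 did not. Of the 4417 without it before, 1482 (33.6%) had it after. Thus 2935 lost regions carried it in neither state. Among kept regions 99.7% of those with the mark before also had it after. Within the lowest score group the shares before were 56.5% of lost and 76.3% of kept regions, and after 57.7% and 92.6%.

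H3K9Ac and H3K4me3 were scarce on lost regions. H3K9Ac lay on 145 lost regions (1.25%) before, against 42.4% of kept and 30.7% of all, and on 338 (2.91%) after, against 61.4% of kept and 44.7% of all. In the lowest score group H3K9Ac before was on 0.816% of lost and 7.63% of kept regions. Of the 145 lost regions with H3K9Ac before, 121 had it after as well, and 217 had it only after. A region 90795 bp from Dkk1, of 21619 bp and score 61.55, was among those that had H3K9Ac after only. H3K4me3 was on 21 lost regions (0.181%) in each state, against 22.6% of kept and 16.2% of all before and 26.2% of kept and 18.7% of all after. H3K36me3, the mark of transcribed gene bodies, was on similar shares of lost and kept regions at their centres. It overlapped 29.6% of lost, 47.3% of kept and 42.2% of all regions before, and 29.1%, 47.1% and 42.0% after, but the centre base lay in it in 26.7% of both lost and kept regions before, with a 95% interval of the difference from -0.939 to 0.963 points. In the lowest score group the order of the whole-region shares before was the other way, 31.2% of lost and 28.8% of kept. In groups 3 and 4 kept regions were far ahead, with 22.6% of lost and 48.2% of kept, and 4.85% and 62.1%. Of lost regions with H3K36me3 before 92.5% had it after, as did 92.8% of kept ones.

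**Figure D2:**
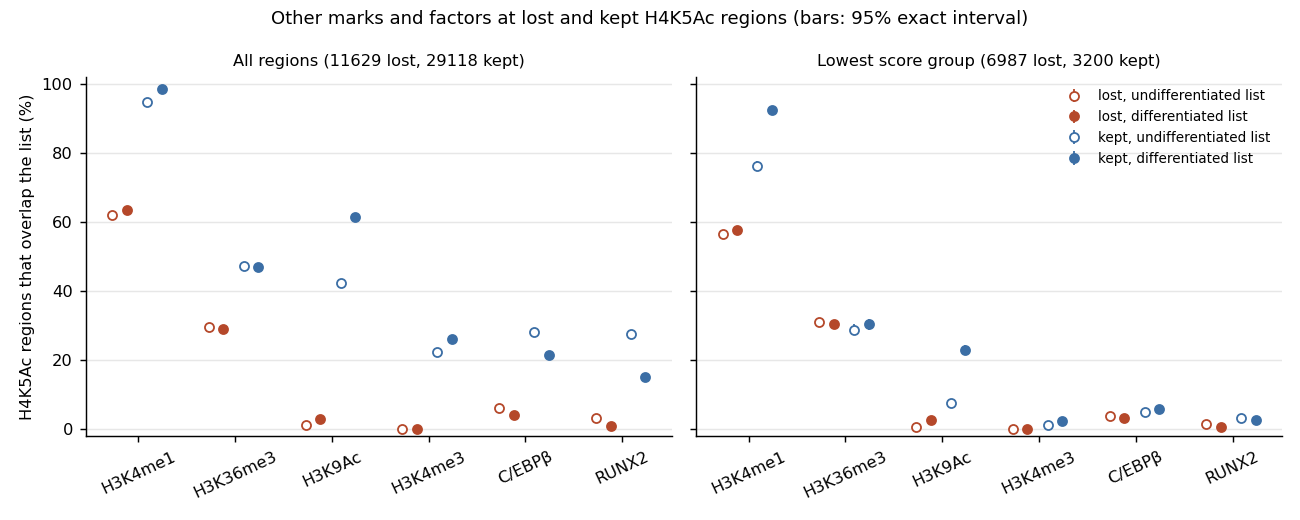
Share of lost (red) and kept (blue) H4K5Ac regions (vertical axis, percent) that overlap the undifferentiated list (open) or the differentiated list (filled) of each mark or factor, over all regions and within the lowest score group; bars are 95% exact intervals, often smaller than the points. H3K4me1 sits at 62.0% and 63.4% of lost regions and H3K36me3 at 29.6% and 29.1%, while H3K9Ac, H3K4me3 and both factors are low on them.

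**Figure D3:**
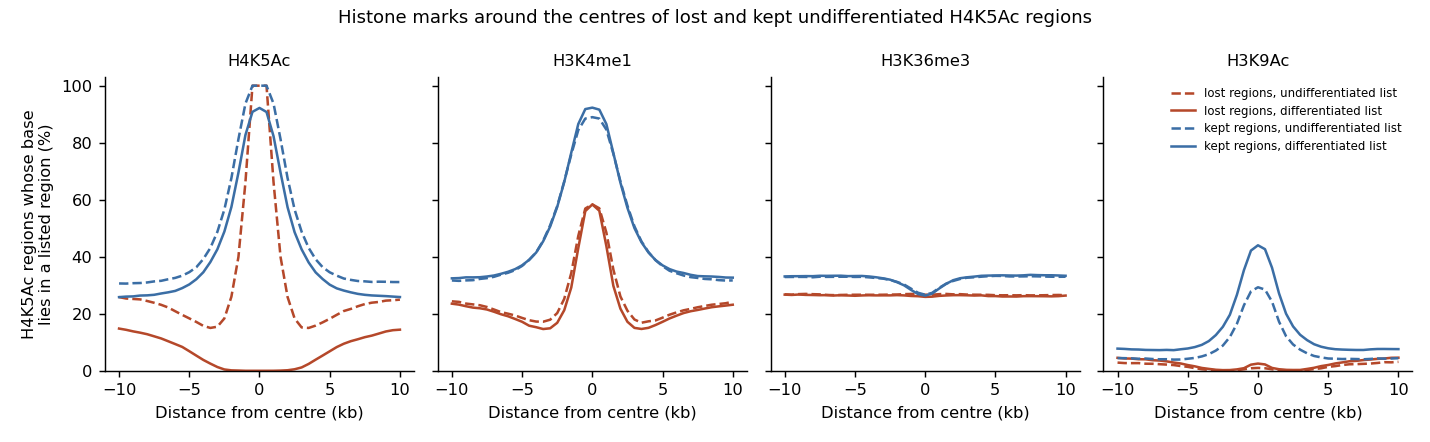
Share of lost (red) and kept (blue) regions whose base at each distance from the centre (horizontal axis, kb) lies in a region of the undifferentiated (dashed) or differentiated (solid) list of 4 histone marks. At the centre of lost regions H3K4me1 is at 58.4% before and 58.3% after, while H4K5Ac is at 100% before and 0% after, as the rule sets.

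Sorted by their other marks before differentiation, the lost regions fell into 4 classes. The largest, 5185 regions (44.6%), had H3K4me1 without H3K36me3, and its median distance to a start was 32071 bp. Both marks were on 2027 regions, at a median of 12717 bp from a start, and H3K36me3 alone on 1419. Neither mark was on 2998 regions, which lay farthest out at a median of 61359 bp. The H3K4me1-only class held most of the factor peaks: RUNX2 was on 278 of its regions (5.36%) and C/EBPβ on 525 (10.1%), against 46 (1.53%) and 72 (2.40%) of the class with neither mark. No mark or factor other than H4K5Ac was listed before on 2862 lost regions (24.6%), against 3.07% of kept and 9.22% of all regions. None was listed in either state on 1810 lost regions (15.6%), against 0.405% of kept and 4.73% of all.

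The strongest lost regions were about as wide as the kept regions of their score group, and more of them than of those kept regions were without H3K4me1. The median score in the highest score group was 67.05 for lost and 89.3 for kept regions, so the 2 sets were not alike in score. In this group 165 regions were lost, with a median width of 13188 bp, close to the 13410.5 bp of the 10022 kept regions there. H3K4me1 was absent before from 48 of them (29.1%, 22.3 to 36.7) and from 37 of the kept ones (0.369%). The other 117 (70.9%) carried it, a larger share than the 62.0% of all lost regions. It was absent in both states from 20 lost and 0 kept regions. Lost regions of this group lay in intergenic DNA in 70.3% of cases against 30.7%, and more than 100 kb from a start in 50.3% against 13.5%. Over 20 kb wide were 49 lost regions, and H3K4me1 covered 33.3% of their bases before, against 78.8% in kept regions of that width.

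The highest-scoring lost region was chr5:47023236-47071547, of 48312 bp and score 277.7,  774382 bp from the start of Lcorl and free of every other mark and factor in both states. It belonged to a row of 11 successive lost regions at chr5:46284218-47166381 with 308.85 kb of acetylated DNA and a median score of 53.0. Of these 11, H3K4me1 touched 3 before and 4 after, and none held RUNX2. Next by score came a region near 4930544G11Rik (242.4), which had no H3K4me1 before and was covered over 62.8% by it after. The Fry region (score 221.25) was different: it was intronic, fully covered by H3K4me1 before and over 99.8% after, and it held 3 RUNX2 peaks before and none after. The remaining ones of the 8 highest scores lay near Mbd2, Lcorl, Nxph1, D16Ertd472e and Kcna5, and the Kcna5 region held 2 RUNX2 and 4 C/EBPβ peaks before and 0 of either after. Among the 8 widest lost regions was one of 38892 bp over the promoter of Rspo3, which encodes an R-spondin that amplifies Wnt signalling. It carried H3K9Ac before, none after, and no H3K4me1 in either state. Another, of 42432 bp, lay over the promoter of 9430076C15Rik.

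RUNX2 and C/EBPβ had peaks in few lost regions, and in a larger share of the stronger ones. RUNX2 peaks lay in 380 lost regions (3.27%) before, against 27.6% of kept and 20.7% of all, and in 109 (0.937%) after, against 15.1% of kept and 11.1% of all. C/EBPβ peaks lay in 722 (6.21%) before, against 28.2% of kept and 21.9% of all, and in 477 (4.10%) after, against 21.5% and 16.5%. A wider region offers more room for a peak, and the comparison was repeated in windows of one size. In the central 1 kb the shares before were 1.96% of lost and 8.30% of kept regions for RUNX2, and 3.99% and 7.76% for C/EBPβ. Score groups were compared over whole regions, not in a window of one size. In the lowest group the shares before were 1.59% of lost and 3.41% of kept regions for RUNX2, and 3.91% and 4.94% for C/EBPβ. In the highest, RUNX2 was on 35.8% of lost and 53.8% of kept regions, and C/EBPβ on 24.8% and 51.8%. Lost regions of the highest group were also wide, with a median of 13188 bp against 2529 bp for all lost regions. The larger shares of the stronger lost regions were therefore not compared at like width.

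RUNX2 peaks within lost regions were seldom listed again after differentiation. Of 401 such peaks 77 (19.2%, 15.5 to 23.4) overlapped a differentiated RUNX2 peak, against 4424 of 11814 (37.4%) in kept regions, a difference of -18.2 points (-21.9 to -14.0). Of all 12567 undifferentiated RUNX2 peaks 63.5% overlapped no differentiated one. Outside any H4K5Ac region 90 of 352 (25.6%) were listed again. The difference was present in each score group: 26.5% against 39.6% in the lowest, 21.9% against 36.7%, 14.4% against 32.3%, and 8.57% (6 of 70 peaks) against 38.7% in the highest. Among peaks more than 1 kb from a start it was 19.3% against 40.8%. Peaks of 1 region share their acetylated domain, so they are not independent of each other.

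C/EBPβ differed less. Of 742 C/EBPβ peaks in lost regions 293 (39.5%) were listed again, against 5706 of 13121 (43.5%) in kept regions, a difference of -4.00 points (-7.56 to -0.338), and 57.1% of all 15397 peaks were not listed again. Within score groups the difference was larger than over all peaks, from -8.51 points (-18.0 to 1.23) in the lowest to -17.2 (-27.1 to -3.56) in the highest. In the lowest group its interval holds 0. In groups 2 and 3 the C/EBPβ difference was -14.4 and -15.3 points. That of RUNX2 was -13.1, -14.9, -17.8 and -30.1 points in groups 1 to 4, close to C/EBPβ in groups 2 and 3.

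The RUNX core was found more often in RUNX2 peaks of lost regions than in those of kept ones. TGTGGT, on either strand, was in 301 of 401 peaks (75.1%, 70.5 to 79.2) in lost regions and in 5889 of 11814 (49.8%) in kept regions, against 51.5% of all RUNX2 peaks. This difference of 25.2 points was 9.76 points when a kept region had to be covered over 50%. Promoter peaks held it rarely in kept regions (23.9%), and only 23 of the 401 peaks were within 1 kb of a start. Among the others it was in 77.5% of 378 peaks in lost and 59.8% of 8544 in kept regions, a difference of 17.7 points (13.1 to 21.8). The difference was 12.6 points (5.91 to 18.6) among those in score groups 1 and 2, and 11.1 points (3.27 to 17.9) among those in groups 3 and 4. Peaks that were listed again held the core more often in both sets, 85.7% of 77 in lost and 58.1% of 4424 in kept regions, against 72.5% of 324 and 44.9% of 7390 that were not. The C/EBP words were in 13.1% of 742 C/EBPβ peaks in lost regions, 10.2% in kept regions and 12.3% of all C/EBPβ peaks.

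**Figure D4:**
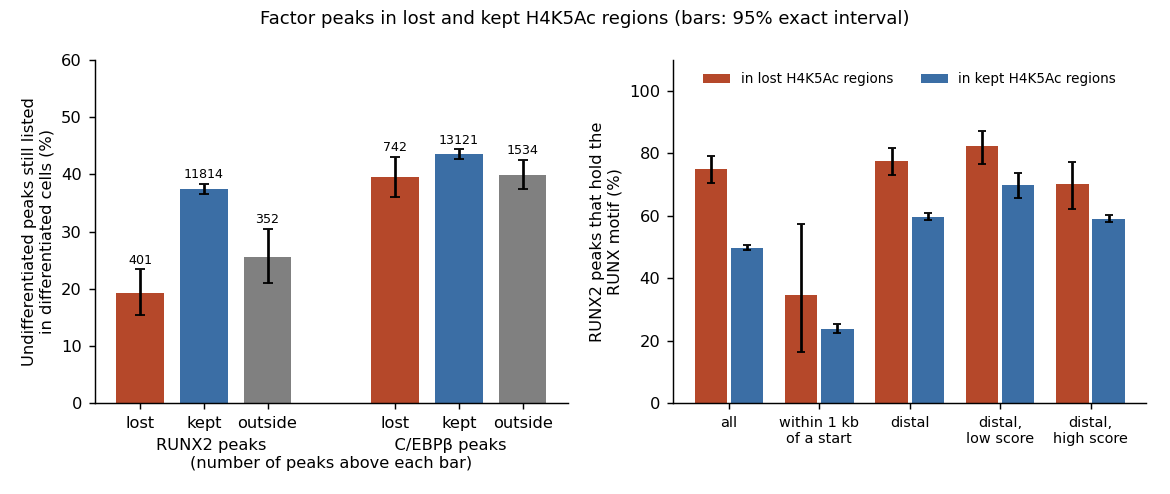
Left, share of undifferentiated RUNX2 and C/EBPβ peaks that were still listed in differentiated cells (percent), for peaks in lost, kept and no H4K5Ac regions; right, share of RUNX2 peaks that hold TGTGGT on either strand, by set and by distance and score, low score standing for score groups 1 and 2. Bars are 95% exact intervals; RUNX2 peaks in lost regions were listed again in 19.2% of cases and held the core in 75.1%.

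Over the central 1 kb of the regions themselves, motif shares differed by less. AP-1, the site of Fos and Jun dimers (TGANTCA, both strands), was in 36.9% of lost, 30.5% of kept and 32.3% of all regions, and in 38.8% and 34.5% within the lowest score group. The TEAD word GGAATGT, of the factors that carry YAP, was in 17.9% of lost, 14.7% of kept and 15.6% of all. TGTGGT was in 58.7%, 55.2% and 56.2%, and in 59.7% and 59.8% of lost and kept regions of the lowest group. The homeobox word TAATTA was in 30.3% of lost, 21.7% of kept and 24.2% of all regions. Among regions with 40 to under 45% G and C the last difference was 0.581 points (-1.05 to 2.22), whereas that of AP-1 was 3.11 points (1.36 to 4.87). AP-1 was not alone in this: the TEAD word differed there by 2.34 points (0.972 to 3.73) and the NFY word CCAAT by 2.64 (1.10 to 4.15). TGTGGT differed by 1.74 points (-0.0471 to 3.51) and the C/EBP words by -0.689 (-1.35 to 0.00655).

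By nearest start within 100 kb, 9031 lost regions belonged to a gene. At least 1 region was lost at 5121 of 12945 genes with a region (39.6%), and all were lost at 1058 (8.17%), of which 854 had just 1. Long genes held the most. Etl4 lost 17 of 24 regions, at scores from 5.25 to 41.3. Rfx3, which encodes a factor of ciliated cells, lost 14 of 18. Gtdc1 lost 14 of 23 and Meis2, a homeobox gene, 14 of 25. Plxdc2 (13 of 18), Arhgap15 (13 of 19), Macrod2 (13 of 21) and Skap1 (12 of 14) came next, then Pid1 with 11 of 13. Trim24 lost 11 of 14, Slit2, a guidance ligand, 10 of 18, and Etv6, an ETS factor, 10 of 20. The other 8 of the 20 genes with the most losses were 9430076C15Rik, Atrnl1, Trpm3, Smyd3, Rbfox1, Magi3, Pbx3 and Usp34, with 9 or 10 each.

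Genes that lost every region were mostly without marks of transcription in either state. Promoter H3K4me3 before was on 117 of the 1058 (11.1%), against 54.6% of the 7824 genes that lost none and 51.9% of all, and it was on 122 (11.5%) after. H3K36me3 over at least 50% of the gene was on 15.5% before and 14.6% after, against 65.1% and 66.1% of genes that lost none. A fall of H3K36me3 cover by 10 points or more was found at 33 of them (3.12%, 2.16 to 4.35). The share was 5.80% of genes that lost none and 6.08% of all 12945 genes. A gene with almost no cover cannot fall by 10 points. The median cover before was 0% at genes that lost every region and 79.9% at genes that lost none. These shares therefore cannot tell where covered genes lost the mark more often. Rbfox1, which encodes a neuronal splicing factor, lost all 9 of its regions, Fam19a2 all 8 and Tlx1, a homeobox gene, all 7. H3K36me3 covered 0% of these 3 genes in both states. At Tlx1 the lost regions scored 6.85 to 59.65, and H3K4me1 touched 1 of 7 before and 3 after. At Rbfox1 it touched 9 of 9 before and 8 after. Dner, Ptprd, Ptprq, Rgs7, Asah2, Kcnk10, 4930470P17Rik, Ndst3, Invs and Klrb1c lost all 5 each. Of these, Asah2 (76.7% before and 91.5% after) and Invs (51.3% and 52.7%) were covered by H3K36me3. Elmo1, which encodes an activator of Rac signalling, and Rspo3 lost all 4, and their lost regions were wide, 73.457 kb and 62.629 kb in sum.

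Among genes of bone, the matrix list lost few of its regions, and several regulators lost distal regions. The list of bone matrix and mineralisation genes lost 5 of 66 regions (7.58%, 2.51 to 16.8), against 26.1% of all regions assigned to a gene. Its regions were strong, with a median score of 81.8, and the shares lost in each score group would give it 11.6%, which lies within the interval. The share was 1.89% when regions were assigned by gene body and 10 kb around it, and 0% (up to 6.06%) without the lowest score group of each list. Its losses were 2 of 8 regions at Col5a2, a fibrillar collagen gene, and 1 each at Ank, a pyrophosphate transporter gene, Dmp1 and Tnc. Col1a1 and Alpl lost none of their 2 and 3 regions. Osteoblast transcription factors lost 25 of 85 (29.4%), with 22.9% given their scores. Runx2 itself lost 3 of 7. The 3 lost regions of Runx2 were intronic, scored 10.05 to 15.6, lay 60.653 to 94.003 kb from a start and carried no H3K4me1. Tbx15 and Twist2, a basic helix-loop-helix repressor gene, lost 3 of 6 each. Promoter H3K4me3 remained listed at Runx2 and Tbx15 and was listed at Twist2 before only.

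Signalling genes lost regions at shares close to those their scores give. The Wnt list lost 24 of 115 (20.9%), with 23.3% given its scores. Fzd4, a Frizzled receptor gene, lost 4 of 5, all with H3K4me1 before and 3 with it after. Dkk1 lost 3 of 4, over 89.052 kb, with 2 RUNX2 peaks before and 0 after. Tcf7l2, a Wnt effector gene, lost 3 of 10. The BMP and TGFβ list lost 39 of 139 (28.1%), with 26.3% given its scores. In it Ltbp1, which encodes a TGFβ-binding matrix protein, lost 7 of 18 and Bmpr2, a BMP receptor gene, 6 of 8. Ltbp2 lost 4 of 7, and its H3K36me3 cover was 65.0% before and 0% after. The FGF, EGF and PDGF list lost 24 of 107 (22.4%, 21.6% given its scores). Egfr lost 5 of 9 and Met 5 of 10, and RUNX2 peaks assigned to them numbered 4 and 3 before and 0 after. Of these peaks, 0 at Egfr and 1 at Met lay in lost regions. Of all undifferentiated RUNX2 peaks, 63.5% overlapped no differentiated one. H3K36me3 over Met went from 97.7% to 56.5%, and over Egfr it was 96.1% and 95.7%. Hgf, the ligand of Met, lost 3 of 5.

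Other lists lay on both sides of the share their scores give. Matrix remodelling genes lost 22 of 67 (32.8%, 21.8 to 45.4; 21.2% given their scores), with 7 of 14 at Adamts6 and 4 of 10 at Adamts12, both metalloprotease genes. Axon guidance and Eph genes lost 42 of 130 (32.3%, 24.4%), with 10 at Slit2, 6 of 15 at Efna5 and 5 each at Robo2 and Slit3. Osteocyte genes lost 6 of 17 (35.3%, 16.5%), 3 of them at Dkk1 and 1 each at Dmp1, Fgf23 and Sost, the sclerostin gene, whose only region was lost. Cytokine and osteoclast coupling genes lost 18 of 74 (24.3%, 19.7%). Tnfsf11, which encodes RANKL, lost 4 of 8 regions 7.322 to 54.474 kb from its start; all 4 had H3K4me1 before and 3 had it after. Contractile and focal adhesion genes lost 25 of 116 (21.6%, 19.4%), AP-1 and immediate early genes 17 of 71 (23.9%, 27.6%), YAP and TEAD targets 15 of 75 (against 24.5%) and cell cycle genes 13 of 60 (21.7%, 19.9%). Klf4 lost 4 of 10, Lats2 4 of 7, Lpp 6 of 18 and Cdk6 4 of 9. Housekeeping genes lost 4 of 23 regions. In this paragraph the last percentage in each bracket is the share given the list's scores. That share lay within the 95% interval of the measured share for each list named here except matrix remodelling.

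**Figure D5:**
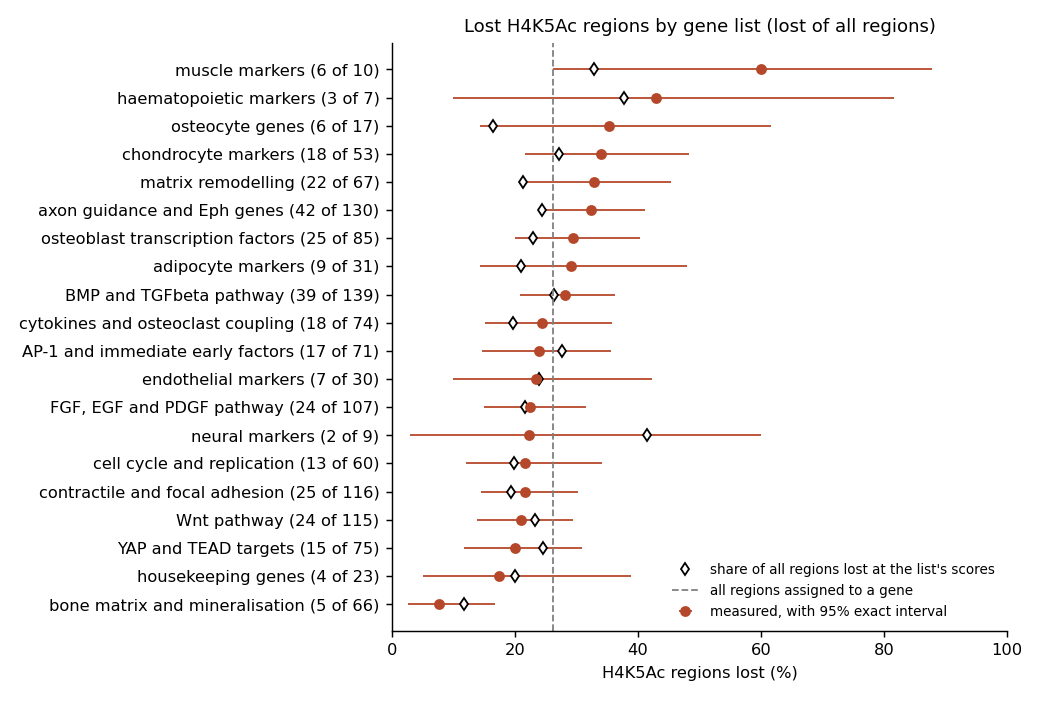
Share of H4K5Ac regions lost (horizontal axis, percent) for each of 20 gene lists, with 95% exact intervals; diamonds give the share that the losses in each score group over all genes would give, and the dashed line is the share over all assigned regions, 26.1%. The bone matrix list is the lowest at 7.58%, and its diamond stands at 11.6%.

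Only 21 lost regions overlapped H3K4me3 before, of 6590 H4K5Ac regions that did (0.319%). Of these 21, 17 lay at promoters, all 21 had H3K4me1, 18 had H3K9Ac before and 17 after, and 12 still had H3K4me3 after. Their median score was 12.2. Among them were the promoters of Diap3, a formin gene, Pif1, a DNA helicase gene, and Melk, a mitotic kinase gene, named here after their values were seen. The other 795 lost regions at promoters had no H3K4me3 before.

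Lost regions stood alone or in rows. Along the chromosomes 4659 (40.1%) stood alone between kept regions, and 6970 lay in rows of 2 or more. Rows of 5 or more numbered 239 and held 1587 lost regions. The longest, 24 successive regions at chr1:82848390-84312584, ran from Agfg1 to Pid1 with 145.375 kb of acetylated DNA, and H3K4me1 touched 7 of its regions before and 9 after. Rows of 16 lay near Lcorl and Slit2 on chromosome 5 and near Zeb2, which encodes a repressor of epithelial genes, on chromosome 2. The differentiated list held no region within any of these rows, as the rule requires of their regions but not of the DNA between them.

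As a check on the cells, promoter H3K4me3 was listed at 7 of 10 osteoblast marker genes in each state, though not the same 7. Sp7 had it before only and Spp1 after only, and Alpl and Ibsp had it in neither state. It was at 1 of 5 chondrocyte markers (Sox9) and at 0 of the adipocyte, muscle, haematopoietic, endothelial and neural markers checked. The longer marker lists had it at 2 adipocyte genes in each state, and at 2 chondrocyte genes before and 4 after. H3K36me3 covered at least 50% of 8 osteoblast markers before and 9 after. It did so at 2 chondrocyte markers before and 1 after, and at 1 haematopoietic marker in each state.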

How the data were processed

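The values are the authors' deposited peak lists, 14 in all, in mm9 coordinates. The submitters' processing notes name Bowtie, HOMER and mm9. Their versions and the calling threshold were not given in the sources used here. Each list is a merge of 2 or more peak sets, per the peak names in the files, so replicates could not be compared and read depth is unknown. The score of each peak is the authors' deposited score, on a scale that is not stated; it was used to rank regions within a list and, as a description only, to set undifferentiated scores beside the lowest differentiated one. For both factors it is 0. The protocol text writes H3K5Ac where the antibody label has H4K5Ac, and the state of the differentiated H3K36me3 sample was taken from its title. The 2 input samples were not analysed here.

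Chromosomes 1 to 19 were used, except that the peaks printed as examples were chosen without chromosome 18. Regions overlapped with 1 bp or more in common. Promoters were within 1 kb of a GENCODE vM1 transcription start, genes the nearest start within 100 kb, and sequences came from NCBIM37, the same build. The share given a list's scores weights its regions by the share lost in their score group, 1 of 4 equal groups by score. Named were the 20 genes with the most lost regions, the 15 with the most among genes that lost all, up to 4 members of each of 20 lists, and the 8 lost regions of highest score, greatest width and most RUNX2 peaks; members listed for contrast or without losses were added after their values were seen. Not every gene that this rule names is reported here. The members and lists were chosen with earlier results of these data known. Python 3.11.15, pandas 2.3.3, scipy 1.17.1 and matplotlib 3.10.9 were used, and the overlap code was tested on simulated intervals. The alternatives were a cover of 50%, differentiated regions extended by 1000 bp, the lowest score group removed, that group alone, the central 1 kb, merging within 1000 bp, promoters of 5 kb and gene bodies extended by 10 kb.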

Additional observations from a re-analysis of the deposited data

How the results depend on the processing

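No paired analysis was possible because each antibody and state had 1 merged list and none of the comparisons comes from a test. Across 14 results and 64 values under alternatives, none of these differences changed sign, 28 values stayed within the main value's 95% interval (for gene counts and G and C content within 1.5 times) and 36 moved out of it. H3K36me3 and the motif words in the regions were not among them, and there the differences for H3K36me3 before (31.2% of lost, 28.8% of kept) and TGTGGT (59.7% and 59.8%) turned sign in the lowest score group. Extending the differentiated regions by 1000 bp moved none. The share of H4K5Ac regions lost was 35.5% when a kept region had to be covered over 50%, and 26.5% without the lowest score group of each list. The differences below are lost minus kept, in points. With the 50% cover, H3K4me1 was -26.7 before and -28.5 after, H3K9Ac -38.6 and -54.5, RUNX2 before -22.1, C/EBPβ before -19.4, the promoter share -29.0 and the RUNX core in RUNX2 peaks 9.76. Without the lowest score group, they were H3K4me1 -19.0 and -16.8, H3K9Ac -47.1 and -61.1, RUNX2 -27.9, C/EBPβ -23.4 and promoters -33.9, and the bone matrix list lost 0% (up to 6.06%). In the lowest score group alone, H3K4me1 before was -19.8, H3K9Ac -6.81 before and -20.1 after, RUNX2 before -1.82, C/EBPβ before -1.03 and promoters -9.37. There RUNX2 peaks listed again differed by -13.1, C/EBPβ peaks by -8.51 (interval to 1.23) and the RUNX core by 14.8. In the central 1 kb, H3K4me1 was -31.2 and -34.2, H3K9Ac -30.8 and -45.5, RUNX2 -6.34 and C/EBPβ -3.77. Promoters of 5 kb gave -28.2, RUNX2 peaks over 1 kb from a start gave 17.7 for the core, and gene bodies with 10 kb gave 1.89% lost for the bone matrix list. The alternatives for the RUNX core, the bone matrix list and G and C content were chosen after seeing the data. The cause of these shifts was not tested. Read depth is unknown, so the limit it sets on weak regions cannot be given.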

Other observations

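Outside the chromosomes used above, 242 of 838 undifferentiated H4K5Ac regions on chromosome X (28.9%, 25.8 to 32.1) overlapped no differentiated region, against 28.5% on chromosomes 1 to 19. Among genes that mark other cell types, chondrocyte markers lost 18 of 53 regions (34.0%, with 27.1% given their scores), of which 6 of 11 were at Sox6 and 2 of 2 at Col9a1 and Hapln1 each. Adipocyte markers lost 9 of 31 (29.0%) and endothelial markers 7 of 30 (23.3%), with 20.9% and 23.8% given their scores. Muscle markers lost 6 of 10 (60.0%, 26.2 to 87.8), haematopoietic markers 3 of 7 and neural markers 2 of 9. The scores of these last lists give 32.8%, 37.7% and 41.4%.

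Mmp16, which encodes a membrane-bound matrix metalloprotease, lost both of its regions. The one at its promoter, of 2740 bp and score 9.9, kept H3K9Ac in both states and H3K4me1 over 95.5% of its length before and 89.6% after, and its RUNX2 peak was not listed in differentiated cells.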
